A study of Mus musculus with 9 samples.

Results

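The genes of the type 2 cytokine locus, the genes that act with them and the steroid enzyme gene Cyp11a1 were followed in nascent RNA of mouse CD8+ T cells, the lymphocytes that kill infected and tumour cells. The set held 8 of the 37022 genes in the tables: the cytokine genes Il13, Il4, Il5 and Il10, the DNA repair gene Rad50, the transcription factor genes Gata3 and Maf, and Cyp11a1. They were taken by symbol and had been chosen by their gene-body signal in these same 3 comparisons, so their differences are given as a description with no test. The study set 3 groups of 3 libraries side by side: cells under acute stimulation, cells under chronic stimulation, and chronically stimulated cells with MEK inhibited. It did so to look at transcription in relation to T cell exhaustion, a state of reduced function reached under lasting stimulation. All groups were labelled alike, with 0.2 mM 5-ethynyl uridine, a uridine analogue taken up into RNA made during 30 minutes, before capture of the labelled RNA and sequencing. The mouse strain and age, the way and length of stimulation, the inhibitor and its dose, and whether the replicates came from separate mice are not given in the sources used here. The p-values below therefore measure only the spread between these libraries, which may be technical.

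Interleukins 4, 5 and 13 are the type 2 cytokines, made by helper T cells, innate lymphoid cells and some CD8+ T cells (Tc2 cells) in responses to worms and in allergy. Their genes lie together, with Rad50 between Il13 and Il5, and the 3′ part of Rad50 holds the locus control region through which the cytokine genes are regulated. GATA3 is the transcription factor that opens this locus, MAF activates Il4 and Il10, and IL-10 is an anti-inflammatory cytokine that type 2 cells and other T cells can make. CYP11A1 is the mitochondrial enzyme that cuts the side chain of cholesterol to make pregnenolone, the first step of steroid synthesis, and it has been described in type 2 T cells, CD8+ cells included. MEK is the kinase that activates ERK downstream of the T cell receptor.

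On GRCm38, the 4 genes of the locus lie on chromosome 11 within 122.1 kb, from 53602982 to 53725106. Il4 (ENSMUSG00000000869.12) was read from a transcript at 53602982 to 53617224 on the minus strand, Il13 (ENSMUSG00000020383.1) at 53631324 to 53634702 on the minus strand, Rad50 (ENSMUSG00000020380.16) at 53649519 to 53707319 on the minus strand, and Il5 (ENSMUSG00000036117.2) at 53720794 to 53725106 on the plus strand. The others lie elsewhere. Il10 (ENSMUSG00000016529.5) is at chromosome 1, 131019845 to 131024974, plus strand. Gata3 (ENSMUSG00000015619.10) is at chromosome 2, 9857078 to 9878600, minus strand. Maf (ENSMUSG00000055435.6) is at chromosome 8, 115682942 to 115707096, minus strand. Cyp11a1 (ENSMUSG00000032323.13) is at chromosome 9, 58014671 to 58027023, plus strand. Each value is a sum over the whole transcript, exons and introns not being given apart.

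The 250 bases before a RefSeq start of each of the 3 type 2 cytokine genes (GRCm38.p6) are shown because these neighbours share a locus yet differed in level and in response, as described below. Each is read 5′ to 3′ on its gene's own strand and ends just before the start. Il13 is chr11:53634703-53634952 on the minus strand, Il4 is chr11:53618666-53618915 on the minus strand, of which 4 bases lie in an annotated exon, and Il5 is chr11:53720544-53720793 on the plus strand. Capitals mark every match, on either strand, to the letters searched: GATA as AGATAA or TGATAA, NFAT as GGAAA, AP-1 as TGANTCA, MAF as TGCTGA, ETS as GGAAGT, and the STAT6 motif.
Il13: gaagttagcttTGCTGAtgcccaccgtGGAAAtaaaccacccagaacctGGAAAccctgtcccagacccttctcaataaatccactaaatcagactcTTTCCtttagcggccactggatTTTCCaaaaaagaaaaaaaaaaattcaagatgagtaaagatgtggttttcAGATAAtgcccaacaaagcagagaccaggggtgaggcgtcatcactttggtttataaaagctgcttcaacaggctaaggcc
Il4: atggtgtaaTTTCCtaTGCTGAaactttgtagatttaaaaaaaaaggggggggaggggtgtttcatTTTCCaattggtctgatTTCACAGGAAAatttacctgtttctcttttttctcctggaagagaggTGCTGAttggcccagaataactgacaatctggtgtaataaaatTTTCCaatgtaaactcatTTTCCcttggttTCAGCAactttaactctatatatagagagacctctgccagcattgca
Il5: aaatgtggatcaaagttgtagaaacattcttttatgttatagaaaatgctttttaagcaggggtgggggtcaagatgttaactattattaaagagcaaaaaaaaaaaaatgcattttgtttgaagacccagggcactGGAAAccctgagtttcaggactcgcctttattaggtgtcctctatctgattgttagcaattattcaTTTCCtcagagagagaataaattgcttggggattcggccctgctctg
The Il13 window held 1 GATA match, AGATAA at 81 to 76 bases before the start, with 4 NFAT matches and 1 MAF match. The Il4 window held 5 NFAT, 3 MAF and 1 STAT6 match, the last overlapping 1 of the NFAT matches, and no GATA match. Il4 has a second RefSeq start, nearer to the transcript used here, and the window before it, chr11:53617339-53617588, held no match to any of the motifs. The Il5 window held 2 NFAT matches and none of the others. Among all 32851 RefSeq windows of that length, 16.6% held a GATA match, 55.6% an NFAT match, 16.1% a MAF match, 5.85% a STAT6 match, 6.75% an AP-1 match and 19.7% an ETS match, so NFAT letters in particular are common. The Gata3 window, all 250 bases of which lie in annotated exons, held 2 NFAT matches and 1 MAF match. Of the windows before 2 Cyp11a1 starts, 1 held a STAT6 match and the other no match. The window with the STAT6 match also lies in annotated exons over all its 250 bases. A match is a run of letters, not a measured site.

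The unit throughout is scaled signal: the deposited gene-body signal of a transcript after trimmed-mean scaling between libraries. Gene-body totals ran from 48601757 to 52216192 per library, depth in reads is unknown, and correlations across 15942 genes were 0.959 to 0.984 within groups and 0.91 to 0.954 between groups. A ribosomal RNA-like locus took 19.1% to 22.3% of the signal in acute, 34.2% to 40.6% in chronic and 29% to 36.1% in MEK-inhibited libraries. Scaling to library totals instead moved the median of all genes by -0.48 on the log2 scale for chronic minus acute. The whole CD8 T cell marker list passed the filter (10 of 10), its summed level running from 44708 to 52177 in acute, 29905 to 35504 in chronic and 37749 to 41111 in MEK-inhibited libraries. Cd8a itself averaged 4061, 968 and 2881 in these groups. Of the mast cell, basophil and eosinophil markers, other sources of type 2 cytokines, 0 of 11 passed, and their summed level was 84.6 to 162 in acute, 36 to 54.1 in chronic and 40.1 to 171 in MEK-inhibited libraries. Of the innate lymphoid, NK and gamma-delta markers 3 of 7 passed, with sums of 1383 to 1592, 616 to 809 and 1212 to 1423, while the NK genes Ncr1, at means of 3.91, 1.96 and 0, and Klrb1c, at 9.87, 24.1 and 40.6, did not pass. Cd4 and Zbtb7b summed to 1040 to 1367, 1054 to 1383 and 1729 to 2016. They went opposite ways, Cd4 averaging 442, 234 and 116 and Zbtb7b 789, 1002 and 1769. B cell and myeloid markers passed in 4 of 10 cases and summed to 749 to 1097, 720 to 1781 and 654 to 899, with the Fc receptor gene Fcgr3 at 291, 993 and 459. The innate sum was lowest in chronic libraries, with Il18r1 at 808, 106 and 665 and Trdc at 362, 220 and 391, but Zbtb16 at 255, 282 and 190. The mast cell, basophil and eosinophil sums of chronic libraries overlapped those of MEK-inhibited ones. B cell and myeloid sums, and Fcgr3, reached their highest values in chronic libraries. The other genes of that list that passed had lower means in chronic than in acute libraries. Cd79a averaged 335, 106 and 153, Csf1r 77.3, 54.3 and 80.4, and Adgre1 88.7, 62.3 and 53.3. The part of any of these cells in the results was not tested.

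Il13, which encodes the cytokine that drives mucus production and airway reactivity, was transcribed at a low level under acute stimulation and strongly under chronic stimulation. Its scaled signal was 306, 282 and 259 in the acute libraries, 8506, 9366 and 11112 in the chronic ones, and 260, 456 and 520 with MEK inhibited. All chronic libraries stood far above both other groups, and the MEK-inhibited libraries overlapped the acute ones. The means were 282 ± 23.6, 9661 ± 1330 and 412 ± 136 (SD, n = 3), a 34.2-fold difference between chronic and acute and a 23.5-fold lower value with MEK inhibited than without. On the log2 scale chronic minus acute was 5.07 (SE 0.2, 95% interval 4.64 to 5.5), MEK-inhibited minus chronic was -4.59 (-5.02 to -4.15), and MEK-inhibited minus acute was 0.48 (0.05 to 0.91). Fewer transcribing cells and less RNA per cell cannot be told apart in such bulk libraries. Among all 15942 genes tested, Il13 had the 8th largest difference between chronic and acute and the 5th lowest value of MEK-inhibited minus chronic, ranks of the measure that chose it.

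Il4, whose product drives type 2 differentiation and class switching to IgE, lies next to Il13 but differed far less. It read 560, 716 and 889 in acute, 1588, 1223 and 1413 in chronic and 494, 479 and 398 in MEK-inhibited libraries. The 3 groups did not overlap, chronic being highest and MEK-inhibited lowest. The means were 722 ± 165, 1408 ± 183 and 457 ± 51.9 (SD, n = 3), so the chronic value was 1.95-fold the acute one and the MEK-inhibited value 3.08-fold lower than the chronic one. The log2 differences were 0.98 (SE 0.18, 95% interval 0.6 to 1.35), -1.61 (-1.99 to -1.23) and, against acute, -0.63 (-1.01 to -0.26). The other 3 annotated Il4 transcripts gave 0.88 to 1.06 and -1.47 to -1.63 for the first 2 comparisons.

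Il5, which encodes the growth and survival factor of eosinophils, stayed at the edge of detection and did not pass the filter of 50 in at least 3 libraries. It read 7.04, 5.24 and 14.3 in acute, 108, 78.6 and 42.7 in chronic, and 4.01, 0 and 0 in MEK-inhibited libraries. Chronic libraries were the highest without overlap, and 2 of the 3 MEK-inhibited libraries were listed at 0. The size of these differences depends on the pseudocount: chronic minus acute was 2.52 (SE 0.6) with 5 added, 3.06 with 0.5 and 1.69 with 20, and MEK-inhibited minus chronic was -3.66, -6.11 and -2.12. Its span overlaps Gm12214 on the other strand, and the use of strand in counting is not stated, so the reads cannot be assigned to 1 of them.

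Rad50, the gene of a subunit of the MRE11 complex that senses broken DNA ends, lies between the cytokine genes and differed little. Its values were 3613, 3524 and 3384 in acute, 4846, 4947 and 4210 in chronic and 4600, 3951 and 3966 in MEK-inhibited libraries. Chronic and MEK-inhibited libraries overlapped, and both lay above acute. The chronic mean of 4668 ± 400 was 1.33-fold the acute mean of 3507 ± 116 (SD, n = 3), with 4172 ± 371 under MEK inhibition. On the log2 scale these were 0.41 (SE 0.097, 0.2 to 0.61) for chronic minus acute, -0.16 (-0.37 to 0.04) for MEK-inhibited minus chronic and 0.25 (0.04 to 0.45) for MEK-inhibited minus acute. The direction for Rad50 against acute rested on the scaling: with library totals the difference was -0.08 for chronic and -0.14 for MEK-inhibited cells, and on the deposited scale -0.06 and -0.1.

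Setting genes side by side within a library removes the scaling. The ratio of Il13 to Rad50 was 0.0804 ± 0.00412 in acute, 2.1 ± 0.476 in chronic and 0.101 ± 0.0393 in MEK-inhibited libraries (SD, n = 3), so Il13 exceeded the far longer Rad50 in total signal only under chronic stimulation among these groups. The ratio of Il4 to Rad50 was 0.207 ± 0.054, 0.304 ± 0.049 and 0.11 ± 0.0107, a much narrower span. The ratio of Il13 to Il4 was 0.411 ± 0.129 in acute, 6.96 ± 1.39 in chronic and 0.927 ± 0.391 in MEK-inhibited libraries. Per kb of transcript span, Il13 was at 83.5, 2860 and 122 in the 3 groups, Il4 at 50.7, 98.9 and 32.1, Rad50 at 60.7, 80.8 and 72.2, and Il5 at 2.05, 17.7 and 0.31. In acute cells the level per kb of Il13, Il4 and Rad50 was thus of the same order, and in chronic cells Il13 stood apart from its neighbours. The Il4 level per kb depends on the transcript of 14.2 kb used here. A shorter one, from 53612460 to 53618669, averaged 631, 1307 and 414 in total, so its level per kb is higher.

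**Figure D1:**
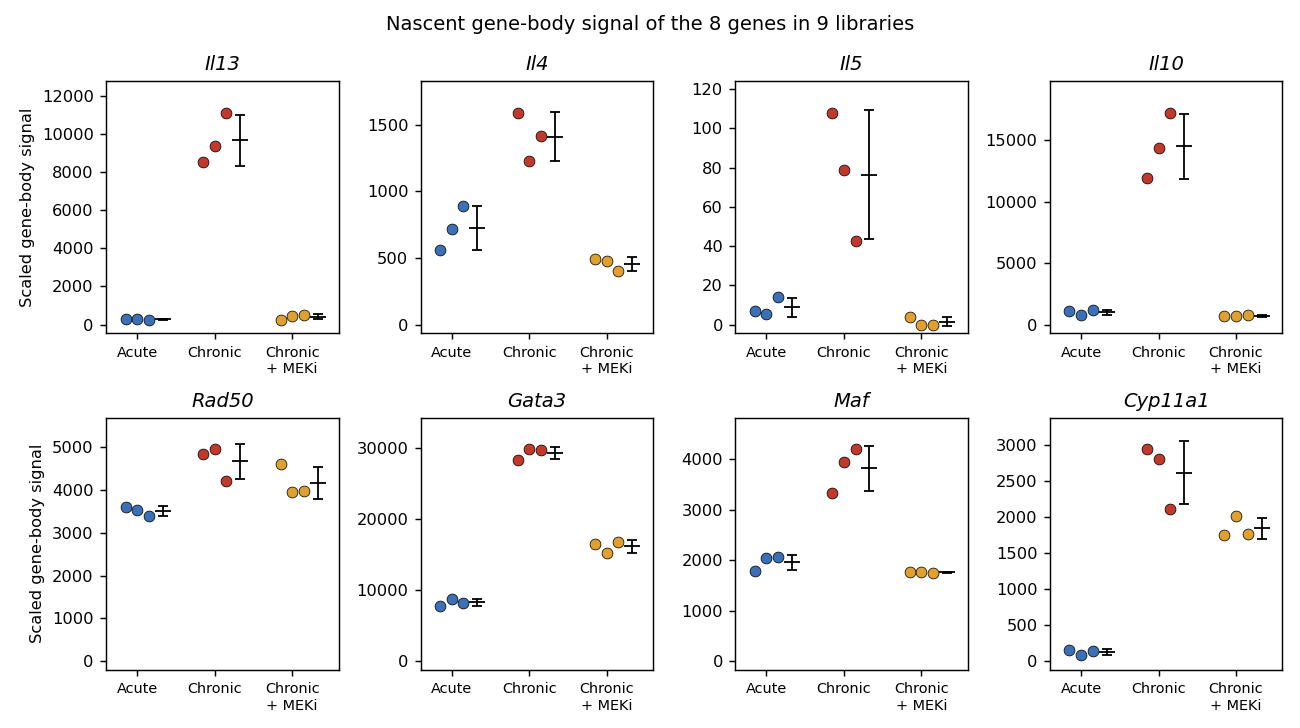
Scaled gene-body signal (linear axis, different for each panel) of the 8 genes in the 9 libraries, as points by group, with the mean and SD beside them. Il13, Il10 and Il5 are highest in the chronic column with both other columns low, whereas Cyp11a1 stays between 1752 and 2016 in the MEK-inhibited libraries, far above the acute libraries at 87.2 to 158.

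Il10, on chromosome 1, was like Il13 far higher in chronic cells than in either other group. Its signal was 1128, 785 and 1151 in acute, 11950, 14413 and 17249 in chronic and 714, 662 and 798 in MEK-inhibited libraries. Chronic libraries stood apart, while 1 acute library lay within the range of the MEK-inhibited ones. The means of 1021 ± 205, 14537 ± 2650 and 724 ± 68.6 (SD, n = 3) correspond to a 14.2-fold difference between chronic and acute and a value 20.1-fold lower under MEK inhibition than in chronic cells. The log2 differences were 3.83 (SE 0.15, 3.5 to 4.16), -4.31 (-4.63 to -3.98) and, against acute, -0.48 (-0.8 to -0.15). Per kb, Il10 reached 2830 in chronic cells, close to the 2860 of Il13, from 199 in acute cells.

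Gata3 had more signal per kb than Maf in each group, at 384, 1360 and 750 against 81.2, 158 and 72.9, and with MEK inhibited it stood between its acute and chronic levels. It read 7784, 8795 and 8228 in acute, 28285, 29741 and 29661 in chronic and 16440, 15155 and 16818 in MEK-inhibited libraries. The 3 groups were widely separated, with the MEK-inhibited libraries between the others. The chronic mean of 29229 ± 819 was 3.53-fold the acute mean of 8269 ± 507 (SD, n = 3). The MEK-inhibited mean of 16138 ± 871 was 1.81-fold below the chronic and 1.95-fold above the acute one. The log2 differences were 1.82 (SE 0.082, 1.65 to 1.99), -0.86 (-1.03 to -0.69) and 0.96 (0.79 to 1.14). Its other 5 transcripts gave 1.63 to 2.25 for chronic minus acute and -0.75 to -1.12 for MEK-inhibited minus chronic. The gene overlaps 9230102O04Rik, 4930412O13Rik and Gm13256, whose signal cannot be told apart from its own.

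Maf differed by less, and with MEK inhibited it lay at or below its acute level. Its values were 1785, 2037 and 2059 in acute, 3324, 3940 and 4194 in chronic, and 1771, 1758 and 1755 in MEK-inhibited libraries. Chronic libraries were highest, and the tightly grouped MEK-inhibited libraries lay just under the lowest acute one. The means were 1960 ± 152, 3820 ± 447 and 1761 ± 8.48 (SD, n = 3), with log2 differences of 0.96 (SE 0.11, 0.73 to 1.19), -1.11 (-1.34 to -0.88) and -0.15 (-0.38 to 0.08). The chronic value was 1.95-fold the acute one and 2.17-fold the MEK-inhibited one. The ratio of Gata3 to Maf was 4.22 ± 0.2 in acute, 7.71 ± 0.731 in chronic and 9.16 ± 0.493 in MEK-inhibited libraries, the last range, 8.62 to 9.58, lying just above the chronic range of 7.07 to 8.51.

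Cyp11a1 was far higher in chronic than in acute cells, like Il13 and Il10, but most of that level was still present with MEK inhibited. It read 158, 87.2 and 146 in acute, 2940, 2805 and 2117 in chronic and 1752, 2016 and 1773 in MEK-inhibited libraries. Both chronic groups lay far above acute, and the MEK-inhibited libraries lay below the chronic ones, the nearest pair being 2016 and 2117. The means were 130 ± 38, 2620 ± 442 and 1847 ± 147 (SD, n = 3). Chronic was 20.1-fold and MEK-inhibited 14.2-fold the acute level, and MEK-inhibited was 1.42-fold below chronic. The log2 differences were 4.31 (SE 0.2, 3.89 to 4.72) for chronic minus acute, -0.49 (-0.91 to -0.08) for MEK-inhibited minus chronic and 3.81 (3.4 to 4.23) for MEK-inhibited minus acute. Its other 3 transcripts gave 3.77 to 4.55, -0.35 to -0.46 and 3.3 to 4.2. Cyp11a1 overlaps Gm17322 on its own strand.

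The contrast between Cyp11a1 and Il13 can be read within each library. The ratio of Cyp11a1 to Il13 was 0.517, 0.309 and 0.564 in acute, 0.346, 0.299 and 0.19 in chronic, and 6.75, 4.42 and 3.41 in MEK-inhibited libraries. No MEK-inhibited ratio came near the others, so with MEK inhibited these genes, both high in chronic cells, stood in reverse order of total signal. The totals cover spans of 12.4 kb for Cyp11a1 and 3.38 kb for Il13. Per kb, the MEK-inhibited means were 150 ± 11.9 for Cyp11a1 and 122 ± 40.1 for Il13 (SD, n = 3), too close to order. Among all genes tested, Cyp11a1 ranked 16th from the top for chronic minus acute, 3rd for MEK-inhibited minus acute and 1837th from the bottom for MEK-inhibited minus chronic, where Il10 ranked 8th. These ranks use the measure that chose the genes.

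**Figure D2:**
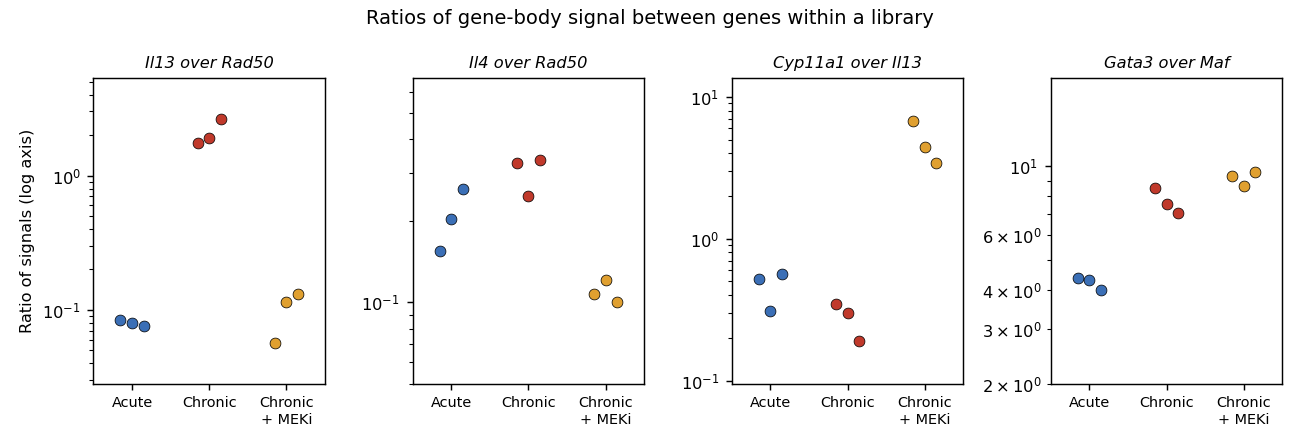
Ratios of gene-body signal within each of the 9 libraries, on log axes, for Il13 over Rad50, Il4 over Rad50, Cyp11a1 over Il13 and Gata3 over Maf. The ratio of Cyp11a1 to Il13 lies between 0.19 and 0.564 in acute and chronic libraries and between 3.41 and 6.75 in the MEK-inhibited ones.

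Of the 8 genes, 7 passed the filter, Il5 being the exception. Between chronic and acute, 7 of 7 were higher with no overlap between groups, against 22.4% of all genes tested, and 4 exceeded 1 on the log2 scale, against 8.39%. Their median difference was 1.82, against -0.02 over all genes. With MEK inhibited, 6 of 7 were lower than chronic with no overlap (background 14.4%), 4 were under -1 (3.48%), and the median was -1.11 against 0.04. Only Rad50 overlapped there. Against acute, 3 MEK-inhibited genes were higher without overlap (Cyp11a1, Gata3 and Rad50, background 22.4%) and 2 lower (Il4 and Maf, background 19.6%), with a median of 0.25 against 0. Cyp11a1 alone exceeded 1 there, against 6.52% of all genes, and 0 were under -1, against 4.60%. Since these comparisons chose the genes, and both involve the chronic libraries, nothing is read from the counts.

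**Figure D3:**
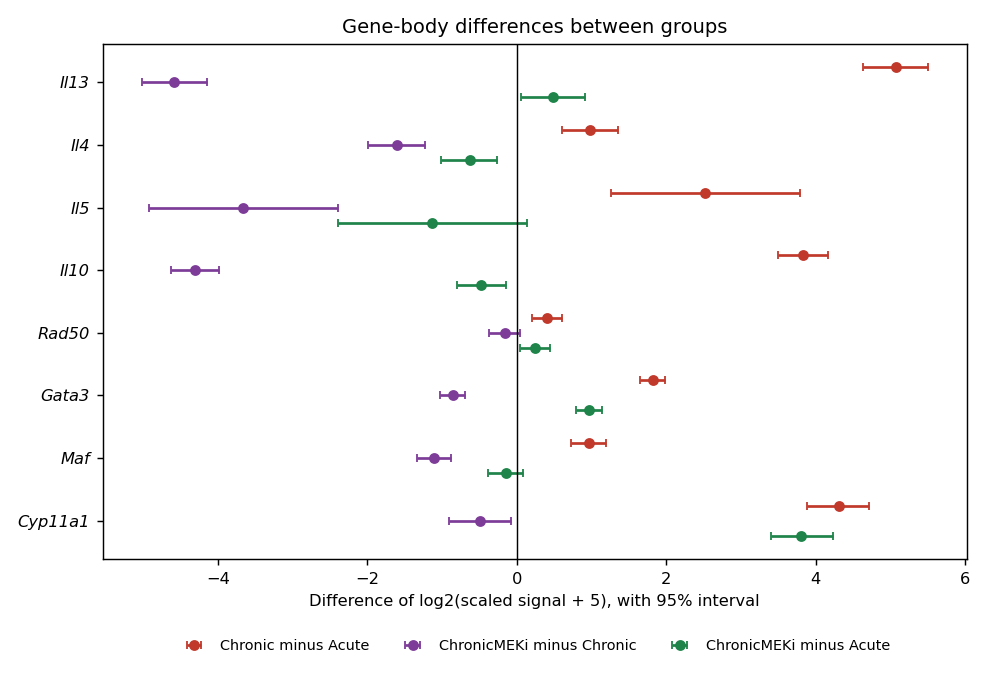
Differences of log2(scaled signal + 5) between groups for the 8 genes, as points with 95% intervals from the limma fit, in 3 colours for the 3 comparisons. Il13 and Il10 show large differences of opposite sign in the first 2 comparisons, whereas Cyp11a1 is at 4.31 and 3.81 against acute and at -0.49 between the chronic groups.

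The pause region, the deposited signal near the transcription start, gave a second readout of the same libraries, in which 6 of the 8 genes passed the filter. It comes from the same contrasts as those that chose the genes and is given as a description. For Il13 it averaged 107 ± 26.5 in acute, 2476 ± 487 in chronic and 133 ± 19.3 in MEK-inhibited libraries (SD, n = 3). For Il10 it averaged 145 ± 61.8, 1987 ± 336 and 107 ± 10.7. These are log2 differences between chronic and acute of 4.48 (SE 0.23) for Il13 and 3.82 (SE 0.27) for Il10. Their gene-body differences were 5.07 and 3.83. The pause region was scaled with its own factors, so the sizes of pause-region and gene-body differences are not on one scale. Gata3 averaged 269, 756 and 443, and Maf 232, 524 and 262, again in the order of their gene bodies for the highest group. Rad50 averaged 99.2, 201 and 112, a pause-region difference of 1.08 (SE 0.33), its gene-body difference being 0.41 on the other scale. Il4 averaged 61.4, 89.2 and 25.5, its chronic and acute libraries overlapping. The Il4 transcript used starts at 53617224, inside another Il4 transcript that starts at 53618669. Its pause-region value was thus read at an inner start, not at the one whose window is shown above. Cyp11a1, at 1.02, 20.3 and 14.8, and Il5 did not pass. As a share of gene-body signal, the pause region of Il13 averaged 33% (18.2% to 48.8%) in acute, 27.5% (25.3% to 29.9%) in chronic and 39.3% (27.3% to 52.8%) in MEK-inhibited libraries. That of Il10 averaged 11% (10.2% to 12.3%), 14.7% (14.4% to 15.3%) and 16.8% (15.9% to 18.5%). That of Gata3 averaged 2.64%, 2.78% and 3.14%. The groups overlapped for Il13 and Gata3 and not for Il10. The regions' lengths are not stated, so shares are compared within a gene only.

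Genes around the locus differed in both directions. Of 27 annotated genes within 500 kb of the interval, the 4 of the locus left out, 14 passed the filter, and between chronic and acute 5 rose and 3 fell by limma's adjusted p (background 18.0% and 15.9%). The nearest, Kif3a, a kinesin motor subunit gene ending 1 kb from the interval, read 284, 258 and 289 in acute, 701, 895 and 704 in chronic and 195, 280 and 274 in MEK-inhibited libraries. It rose by 1.44 (SE 0.21, adjusted p = 3.36e-05) and fell with MEK inhibited by 1.61 (adjusted p = 2.17e-05), with no overlap of chronic with either group. On the other side, Irf1, which encodes an interferon response factor, went the opposite way. It averaged 7073 ± 237, 4109 ± 867 and 8143 ± 317 (SD, n = 3), a log2 difference of -0.8 (adjusted p = 2.24e-05) between chronic and acute and 1.01 (adjusted p = 3.67e-06) between MEK-inhibited and chronic cells. Farther out, Gm12216 fell in chronic cells by 1.7 (adjusted p = 1.58e-06) and was higher with MEK inhibited by 1.62 (adjusted p = 5.84e-06). Fstl4, a follistatin-like gene, fell by 2.68 (adjusted p = 1.6e-05) in chronic cells, and its MEK-inhibited libraries stayed below acute by 1.66 (adjusted p = 0.00222).

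Sept8, a septin cytoskeleton gene, rose by 2.04 (adjusted p = 3.98e-06) in chronic cells and remained above acute with MEK inhibited, by 1.62 (adjusted p = 7.97e-05). P4ha2, a collagen prolyl hydroxylase gene, rose by 3.11 (adjusted p = 0.000255) from a mean of 25.4 to 227, and the noncoding gene 4933405E24Rik by 3.26 (adjusted p = 4.61e-06). Both were lower with MEK inhibited, 4933405E24Rik by a log2 difference of -2.29 (adjusted p = 0.000446) and P4ha2 of -2.09 (adjusted p = 0.0128). The P4ha2 call did not hold without chronic replicate 1 (-1.83, adjusted p = 0.0762) or chronic replicate 2 (-2.03, adjusted p = 0.0629). Slc22a21, a carnitine transporter gene, rose by 1.25 (adjusted p = 0.024), a call lost without acute replicate 2 (0.76, adjusted p = 0.113), or without chronic replicate 1 (1.28, 0.0509), chronic replicate 2 (1.2, 0.0741) or chronic replicate 3 (1.27, 0.0507), and with library totals (0.78, adjusted p = 0.125). In the comparison of MEK-inhibited with chronic cells 3 neighbours were higher and 4 lower (background 9.93% and 7.65%). Those not yet named were Hspa4, at -0.24 (adjusted p = 0.0432), and Gm17334, which lies inside Irf1 on the other strand, at 0.8 (adjusted p = 0.0453). The Gm17334 call was lost with any of the 9 libraries left out (adjusted p up to 0.177). The Hspa4 call was lost without chronic replicate 1 or 2 or any of the MEK-inhibited libraries (adjusted p up to 0.122), and in 5 of 8 other settings, where the difference was as small as -0.11 (adjusted p up to 0.608). Against acute, Sept8 alone was higher with MEK inhibited, and Fstl4 and Hspa4 (-0.44, adjusted p = 0.000426) were lower (background 14.4% and 11.5%). Beyond the window lie the cytokine genes Csf2, described below, and then Il3, which did not pass the filter, at means of 2.37, 7.36 and 3.12.

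**Figure D4:**
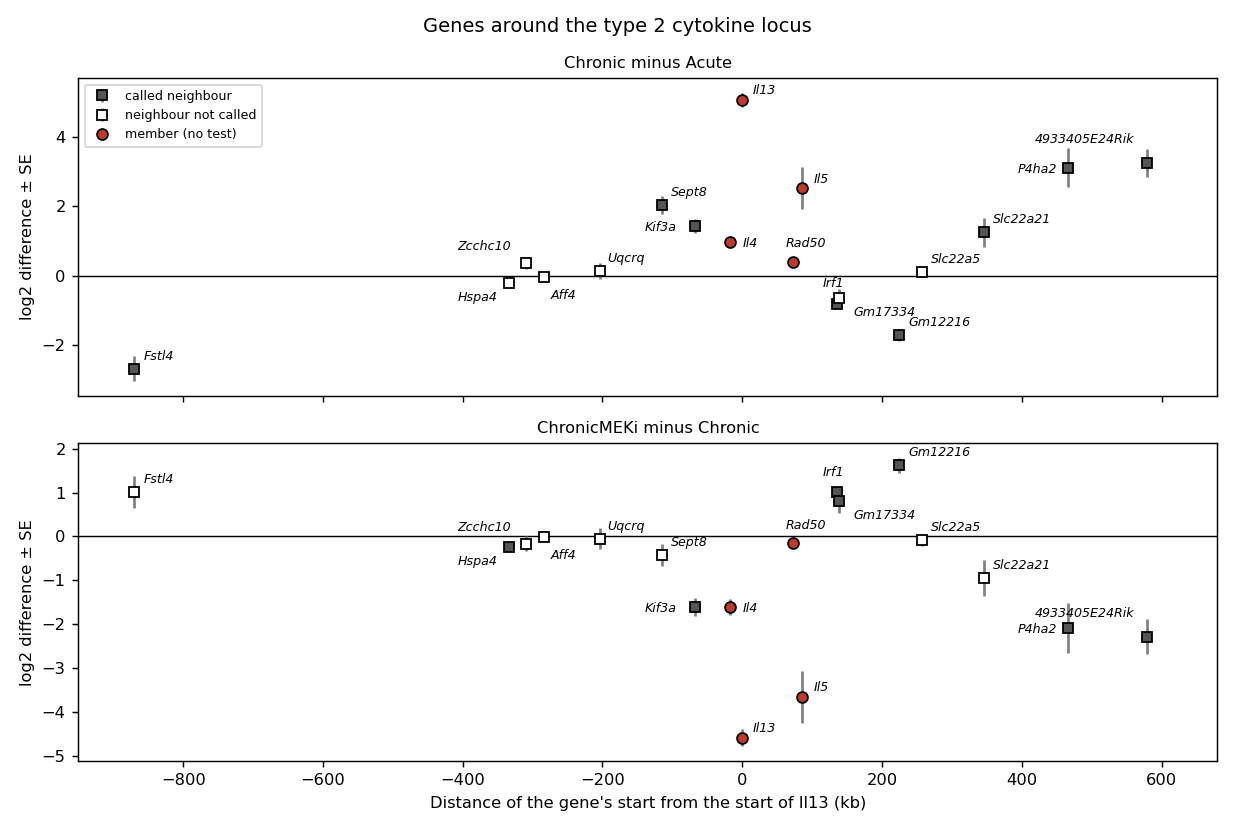
Log2 differences (± SE) of the 14 tested neighbours (squares, filled where called) and of the 4 genes of the locus (circles, not tested) against the distance of each gene's start from the start of Il13 in kb. Il13 and Rad50, less than 100 kb apart, stand at 5.07 and 0.41 in the upper panel, and Kif3a and Irf1 on the 2 sides of the locus differ in sign in both panels.

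Around the other members, the nearest tested protein-coding genes gave 6 higher and 1 lower of 16 between chronic and acute (background 18.0% and 15.9%), and 1 higher and 3 lower between MEK-inhibited and chronic cells (9.93% and 7.65%). Nearest to Il10, at 28.7 kb, lies Mapkapk2, a kinase gene that averaged 5303, 7315 and 9106. It rose by 0.46 in chronic cells (adjusted p = 0.00114), but stood at -0.03 with library totals and -0.01 on the deposited scale. With MEK inhibited it was higher by a further 0.32 (adjusted p = 0.0266), the single higher call there, lost in 7 of the 9 fits that left out 1 library, those without any acute or any MEK-inhibited library or without chronic replicate 3 (0.22 to 0.33). On the other side of Il10, farther off, lies Il24, a cytokine gene of the same family. It read 2563, 2443 and 3267 in acute, 20987, 23794 and 30445 in chronic and 4043, 3709 and 4468 in MEK-inhibited libraries, with a log2 difference of 3.18 (adjusted p = 3.54e-11) and then -2.61 (adjusted p = 1.13e-09). Its groups did not overlap, the chronic libraries being highest. Fcmr, an IgM receptor gene on the side of Il24, rose by 1.14 (adjusted p = 0.000289), and Dyrk3, a kinase gene beyond Mapkapk2, by 1.57 (adjusted p = 4.84e-05). Next to Cyp11a1, Sema7a, a semaphorin gene, rose by 0.85 (adjusted p = 9.04e-06) and was lower with MEK inhibited (-0.62, adjusted p = 0.00051), while Ubl7, Ccdc33 and Stra6 were not called in any comparison. Around Gata3, Taf3, at 24.5 kb, stood at 0.07 (adjusted p = 0.569) in chronic minus acute, Atp5c1 at -0.11 (0.371), Celf2 at 0.02 (0.871) and the distant Usp6nl at -0.85 (adjusted p = 0.000671). With library totals Taf3 was instead lower, at -0.42 (adjusted p = 0.0103). Around Maf, Wwox stood at 0.26 (adjusted p = 0.134) and Vat1l at -0.29 (0.717), while Cmc2, at 1180.9 kb, rose by 1.39 (adjusted p = 2.39e-06) and stayed 1.35 above acute with MEK inhibited (adjusted p = 5.51e-06). Cdyl2 was not called in chronic cells (0.06, adjusted p = 0.776) and fell with MEK inhibited by 0.57 (adjusted p = 0.00644). Mapkapk2, Taf3, Atp5c1, Celf2, Usp6nl, Wwox and Vat1l also overlap other annotated genes.

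The wider pathway was read in 5 lists of 109 genes, of which 83 passed the filter. The lists were drawn up with earlier results of these data known. Over all of them 21 rose and 23 fell between chronic and acute (18.0% and 15.9% of all genes), 23 rose and 16 fell with MEK inhibited (9.93% and 7.65%), and 24 were higher and 10 lower in MEK-inhibited than in acute cells (14.4% and 11.5%). These splits rest on the scaling. With library totals they were 13 and 42, 25 and 15, and 12 and 27, and on the deposited scale 13 and 42, 27 and 15, and 13 and 22. Of the genes named below, Stat6, Tcf7, Lef1, Notch2, Gfi1, Runx1, Bcl6, Riox2, Zfpm1, Il4ra, Il10ra, Il10rb, Jak1, Stat3, Csf2, Epas1, Pparg, Il17rb, Tspo, Hsd11b1 and Stard5 overlap another annotated gene, so part of their signal may belong to it.

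Genes that promote type 2 transcription went both ways. Of 20, 6 rose and 6 fell between chronic and acute (18.0% and 15.9% of all genes), with a median of 0 (-0.02 over all genes). Batf and Irf4, transcription factors that bind together downstream of the T cell receptor, rose by 2.44 (SE 0.15, adjusted p = 4.87e-10) and 2.17 (SE 0.08, adjusted p = 1.14e-12). Irf4 averaged 9452 ± 368 in acute, 42493 ± 3210 in chronic and 15344 ± 310 in MEK-inhibited libraries (SD, n = 3). Tcf7, which encodes TCF-1, a factor of stem-like T cells that also induces Gata3, fell by 2.03 (adjusted p = 7.91e-09), and Notch2 by 0.89 (adjusted p = 1.22e-07). With MEK inhibited 7 rose and 6 fell (9.93% and 7.65% of all genes, median 0.14 against 0.04). Batf and Irf4 each fell by 1.47 (adjusted p = 9.75e-07 and 5.74e-10), Tcf7 rose by 1.56 (adjusted p = 6.58e-07), and Gfi1, a repressor that favours growth of type 2 cells, rose by 0.83 (adjusted p = 4.22e-05). Stat6, the transducer of IL-4 signals, was not called, at 1365, 1285 and 1542. Against acute, 5 were higher and 3 lower (14.4% and 11.5% of all genes). Gfi1 was higher by 1.66 (adjusted p = 7.43e-09) and Batf by 0.97 (adjusted p = 8.19e-05), Lef1 was lower, at -1.15 (adjusted p = 2.31e-06), and Tcf7 was at -0.47 (adjusted p = 0.0295). The Tcf7 call against acute was lost without acute replicate 2 (-0.41, adjusted p = 0.0772), MEK-inhibited replicate 2 (-0.45, 0.0793) or MEK-inhibited replicate 3 (-0.41, 0.117).

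Most genes that restrain type 2 transcription were higher with MEK inhibited or were not called. Of 15 tested, 8 rose and 1 fell (9.93% and 7.65% of all genes), with a median of 0.41 against 0.04. Tbx21, which encodes T-bet, the type 1 factor that opposes GATA3, read 5098, 5961 and 5667 in acute, 4758, 4782 and 4313 in chronic, and 13433, 11551 and 13083 in MEK-inhibited libraries. The MEK-inhibited libraries were all more than any other, with a rise of 1.46 (SE 0.09, adjusted p = 3.07e-09) over chronic and 1.19 (adjusted p = 2.74e-08) over acute. Zfpm1, which encodes FOG-1, a partner that represses GATA3, rose by 1.39 over chronic (adjusted p = 9.99e-08) and 1.55 over acute (adjusted p = 1.87e-08), while Riox2, which encodes a repressor of Il4 also called Mina, fell by 0.57 (adjusted p = 0.000699). Between chronic and acute 2 rose and 6 fell (18.0% and 15.9% of all genes, median 0.04). Riox2 rose by 0.97 (adjusted p = 8.86e-07) and Zbtb32, a repressor that binds GATA3, by 0.61 (adjusted p = 0.00039), the latter call being lost with library totals. Runx1 fell by 1.17 (adjusted p = 1.52e-06) and Bcl6 by 0.85 (adjusted p = 0.00376). In MEK-inhibited against acute cells 7 were higher and 3 lower (14.4% and 11.5% of all genes), Bcl6 at -1.05 (adjusted p = 0.001) and Runx1 at -0.75 (adjusted p = 0.00028) among the latter.

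Among receptors of the cytokines and their JAK-STAT relays, 12 were tested. Between chronic and acute 0 rose and 4 fell by limma's adjusted p (18.0% and 15.9% of all genes, median -0.24), or 1 and 6 at an unadjusted p under 0.05. With MEK inhibited 5 rose and 0 fell (9.93% and 7.65% of all genes, median 0.33 against 0.04), or 6 and 0 unadjusted. Il10rb, the shared chain of the IL-10 receptor family, averaged 4560 ± 342 in acute, 1304 ± 170 in chronic and 3876 ± 330 in MEK-inhibited libraries (SD, n = 3). It fell by 1.81 (adjusted p = 5.39e-10) and rose by 1.57 (adjusted p = 1.09e-08), opposite in direction to Il10 itself. Il10ra, the chain specific to IL-10, rose with MEK inhibited by 1.08 over chronic (adjusted p = 1.33e-07) and 0.83 over acute (adjusted p = 2.5e-06). Il4ra, the receptor chain shared by IL-4 and IL-13, averaged 36197, 29825 and 41691 and rose with MEK inhibited by 0.48 (adjusted p = 0.000438). Jak1 fell by 0.56 (adjusted p = 5.89e-05) in chronic cells and stayed at -0.57 against acute (adjusted p = 7.7e-05). Stat3 was 0.3 higher with MEK inhibited than in acute cells (adjusted p = 0.0146), but -0.08 with library totals and -0.04 on the deposited scale. That call was also lost without acute replicate 1 (0.22, adjusted p = 0.127), acute replicate 3 (0.21, 0.139) or MEK-inhibited replicate 1 (0.23, 0.131). Il13ra1, Il13ra2 and Il2rg were not analysed here.

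Of 15 other effector genes linked with type 2 cells, 7 rose and 3 fell between chronic and acute (18.0% and 15.9% of all genes, median 0.36). With MEK inhibited 2 rose and 6 fell (9.93% and 7.65% of all genes, median -0.05). Csf2, the gene of the growth factor GM-CSF, lies just beyond the window around the locus and took the course of Il13. It read 242, 165 and 353 in acute, 5659, 6864 and 8008 in chronic and 502, 668 and 565 in MEK-inhibited libraries, and the groups did not overlap. It rose by 4.78 (SE 0.22, adjusted p = 1.09e-10) and fell by 3.55 (adjusted p = 1.1e-08), staying 1.23 above acute (adjusted p = 0.000573). Epas1, which encodes a hypoxia-inducible factor, instead kept much of its chronic level, as Cyp11a1 did: it averaged 784 ± 79.9, 8679 ± 788 and 4751 ± 273 (SD, n = 3), 3.46 (adjusted p = 1.22e-13) and 2.6 (adjusted p = 8.69e-12) above acute on the log2 scale. Pparg, a lipid-sensing receptor of type 2 cells, averaged 1196, 3692 and 1221, rising by 1.63 (adjusted p = 2.16e-08) and falling by 1.59 (adjusted p = 8.6e-08). Lif, the gene of leukemia inhibitory factor, went the other way, falling by 1.09 (adjusted p = 1.53e-07) and rising by 0.83 (adjusted p = 9.6e-06). Plac8 fell by 0.47 (adjusted p = 0.00171) and rose by 0.41 (adjusted p = 0.00979), the latter call being lost without MEK-inhibited replicate 1 (0.29, adjusted p = 0.135). Against acute 6 were higher and 0 lower by limma's adjusted p (14.4% and 11.5% of all genes), or 6 and 1 at an unadjusted p under 0.05. Il17rb, a chain of the IL-25 receptor, was higher by 1.36 (adjusted p = 0.00663). Il9, Il3, Il31, Il6, Il21 and Areg did not pass the filter.

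The partners of CYP11A1 in steroid synthesis went both ways. Of 36 genes 21 were tested, and 6 rose and 4 fell between chronic and acute (18.0% and 15.9% of all genes, median 0.33). With MEK inhibited 1 rose and 3 fell (9.93% and 7.65% of all genes, median -0.02). In MEK-inhibited against acute cells 4 were higher and 3 lower (14.4% and 11.5% of all genes). Star, which carries cholesterol into the mitochondrion, averaged 275 ± 88.6, 337 ± 37 and 332 ± 11.3 (SD, n = 3), and Fdxr, the reductase that feeds electrons to CYP11A1 by way of ferredoxin, 222 ± 10.9, 299 ± 61.4 and 300 ± 32.2. Neither passed the test in any comparison, and for both the acute and chronic libraries overlapped. Fdx1, the ferredoxin, averaged 256, 346 and 444 and was 0.82 above acute with MEK inhibited (adjusted p = 0.0164). The outer-membrane protein gene Tspo was not called, at 165, 263 and 249. Stard4, a cytosolic cholesterol carrier, rose by 2.05 (adjusted p = 3.5e-11), fell by 1.02 (adjusted p = 7.23e-07) and stayed 1.03 above acute (adjusted p = 4.27e-07). Hsd17b7, which also acts in cholesterol synthesis, rose by 2.08 (adjusted p = 1.97e-10) and stayed 1.1 above acute (adjusted p = 1.45e-06).

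Hsd11b1, which reactivates glucocorticoids, fell by 1.4 (adjusted p = 5.59e-08) and rose by 0.92 (adjusted p = 2.28e-05). Stard5 fell by 1.11 (adjusted p = 1.32e-06) and stayed at -1.13 against acute (adjusted p = 1.89e-06). Hsd17b12 fell with MEK inhibited by 1.13 against chronic (adjusted p = 1.33e-07) and by 0.74 against acute (adjusted p = 1.62e-05). Several enzymes of later steroid steps did not pass the filter. Among them, Cyp17a1 averaged 4.1, 4.5 and 1.46, Cyp21a1 1.93, 0 and 3.1, Cyp11b1 3.52, 0.375 and 3.94, and Hsd3b1 1.93, 0 and 1.7. Others did pass, such as Srd5a1, which averaged 157, 272 and 235.

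**Figure D5:**
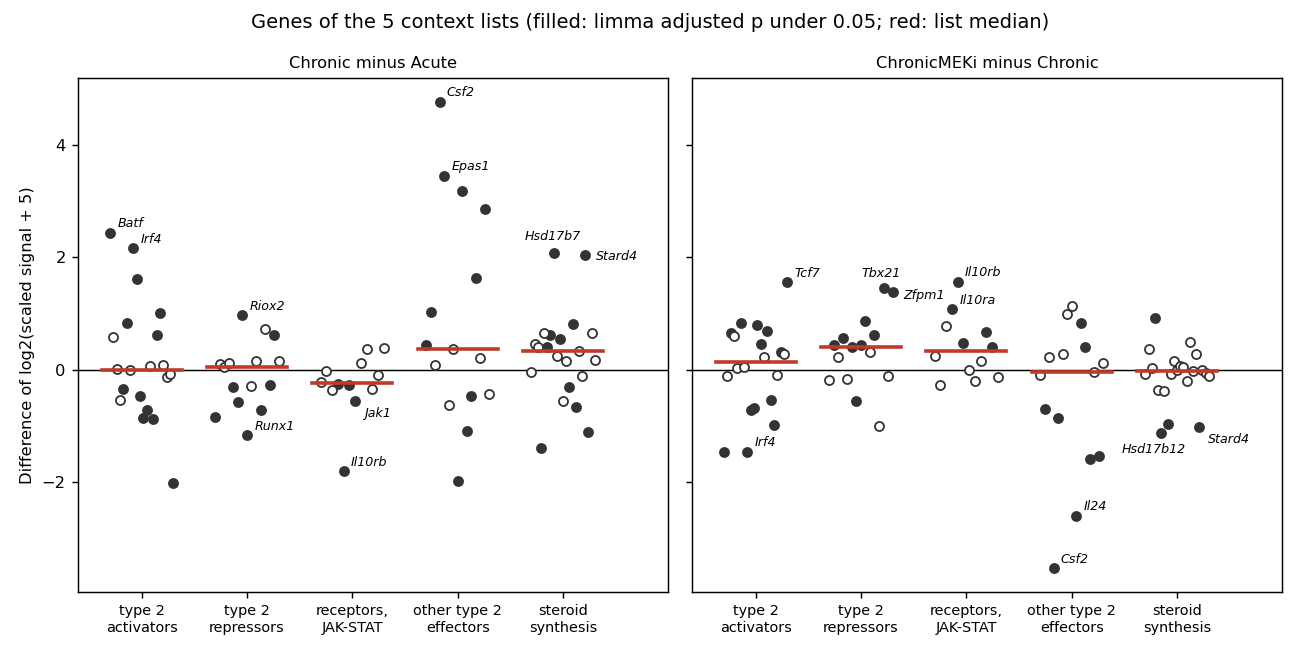
Differences of log2(scaled signal + 5) for each tested gene of the 5 lists, in chronic minus acute (left) and MEK-inhibited minus chronic (right) cells, filled where limma's adjusted p was under 0.05, with the list median as a red line. The medians lie between -0.24 and 0.41, while Csf2 stands at 4.78 and -3.55.

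Across the 9 libraries, the genes whose log2 level was most like that of each gene were found among 11273 genes by Pearson correlation, given as a description because the libraries fall into 3 groups that all genes share. Nearest to Il13 were Srgn (r = 0.992), Adarb1 (0.991) and Fam213a (0.99). Adarb1 averaged 1371, 7454 and 1651. Nearest to Il10 were Neb (0.995), Ybx3 (0.993) and Frmd6 (0.992), and nearest to Il4 were Rcn2 (0.974), Ube2b (0.971) and Myl12a (0.97). Maf was most like Hexim1 (0.996), Icos (0.991) and Bnip3 (0.991), Icos encoding a costimulatory receptor and averaging 5676, 9028 and 5026. Genes most like Gata3 included Stard4 (0.994) and Camta1 (0.993). Camta1 averaged 7774, 27599 and 15392, with the MEK-inhibited mean between the other means as for Gata3. Those most like Cyp11a1 included Rad51b (0.998) and Fads2 (0.993), of which Rad51b averaged 1153, 5291 and 4251, nearer to its chronic than its acute level with MEK inhibited. Rad50 was most like Zfyve19 (0.966), Fcho2 (0.966) and Miga1 (0.959).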

How the data were processed

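Nascent RNA of 9 libraries was read from 2 tables of 118482 transcript rows, a gene-body and a pause-region table, whose names are read here as those regions. The authors deposited signal per transcript, with 1 scale factor per library, not read counts, so limma was used on log2 values and no count model. Per the submitters' processing notes, STAR 2.7.0a, Trim Galore 0.6.10, FastQC 0.12.0, SAMtools 1.19.2 and R 4.1.2 were used on build mm10. The region limits and the use of strand are not given in the sources used here.

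Rows were matched to GENCODE M21 (117346 with version, 383 without, 753 left out), and each gene took its row of largest mean gene-body signal. Trimmed-mean scaling trimmed 0.3 of log ratios and 0.05 of levels from each end. Genes with at least 50 in 3 libraries were tested (limma 3.58.1, R 4.3.3, intensity trend, robust; Python 3.11.15, pandas 2.3.3) on log2(signal + 5), which understates differences of weak genes, with 1 mean per group. P-values were adjusted by Benjamini and Hochberg over 15942 genes, threshold 0.05. Il5 values come from the fit without the filter. The scripts were tested on simulated data.

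The 8 genes and all lists were chosen with earlier results of these data known. Named were the 8 genes, up to 2 largest rises and 2 largest falls among called genes per list and comparison with a mean of at least 100 in the higher group, all called genes within 500 kb of the locus, Kif3a, Irf1, Il3 and Csf2, and the 3 genes most like each member, of which some are not reported here. Il24, Fcmr, Dyrk3, Sema7a, Pparg, Stat6, Il4ra, Star, Fdx1, Fdxr, Tspo, the genes near the other members and those under the filter were added after their values were seen.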

Additional observations from a re-analysis of the deposited data

How the results depend on the processing

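The chronic-minus-acute and MEK-inhibited-minus-chronic differences of the 8 genes kept their direction under every alternative run (pseudocounts 0.5 and 20, no filter, 3 other scalings, the mean over a gene's rows, the replicate block, and each library left out), except Rad50. With library totals Rad50 was at -0.08 (chronic) and -0.14 (MEK-inhibited) against acute, and on the deposited scale at -0.06 and -0.1. Among named genes and neighbours called in the reported fit or under the alternative, those that changed sign, all against acute, were Hsd17b12 in chronic cells (-0.09 with library totals, -0.08 deposited), Mapkapk2 in chronic cells (-0.03, -0.01), Taf3 in chronic cells (-0.42, -0.4) and Stat3 in MEK-inhibited cells (-0.08, -0.04). Other sign changes were of differences called in neither. These scalings move the median of all genes in chronic minus acute by -0.48 and -0.47, which by construction shifts every difference.

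Listed genes that fell between chronic and acute numbered 23, but 15 with no filter and 42 with either scaling, and those that rose 21 but 13 with either. Against acute, MEK-inhibited cells had 24 higher and 10 lower, but 12 and 27 with library totals, 13 and 22 on the deposited scale, and 17 lower once ribosomal RNA-like rows were left out of the totals. Members over 1 on the log2 scale in chronic minus acute numbered 4, or 7 with no filter, where Il5 enters and Il4 and Maf reach or pass 1; in MEK-inhibited minus acute 1, or 2, and those under -1 there 0, or 1 with no filter and 1 with library totals. Leaving out 1 library gave 39 to 44 called genes of the lists (20 to 26 higher, 18 to 23 lower) for chronic minus acute, 32 to 40 (17 to 24, 14 to 16) for MEK-inhibited minus chronic and 30 to 40 (19 to 27, 9 to 14) against acute.

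Over all groups, same-numbered libraries did not deviate together (correlations -0.53 to 0.1, other numbers -0.37 to 0.51, 2 of 9 libraries most like their own number). Between acute and chronic libraries alone, same numbers correlated at 0.09, 0.1 and 0.07 and other numbers at -0.08 to -0.01. With 3 libraries per group these values cannot decide whether the numbers mark pairs. With the replicate block 45, 39 and 38 listed genes were called. Depth in reads is unknown, so counting error cannot be given.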
